A study of Mus musculus with 6 samples.

Results

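The genes described here are 48 targets of the transcription factor ATF4 and genes of the unfolded protein response, read in the parental (P) and axitinib-resistant (AxR) variants of 4T1, a mouse mammary carcinoma line. They were taken by name from a table of 53465 gene identifiers, and all 48 were among the 13550 genes with enough reads to be tested. RNA was sequenced from 3 libraries of P and 3 of AxR. AxR cells came from a spontaneous metastatic lesion that arose after surgery in a Balb/c mouse given axitinib, an inhibitor of the VEGF receptors, at 100 mg/kg/day, and they were then cultured in 0.5 μM axitinib. P cells were the vehicle-treated comparison, and the labels list a drug treatment for AxR only. The growth note, however, names the same medium (RPMI with 5% FBS) and 0.5 μM axitinib for all 6 libraries, so whether P cells were also in drug when RNA was taken is not clear from the labels. AxR is 1 derived line, and selection in the animal, outgrowth from a metastasis and drug in culture cannot be told apart. Nothing says that the 3 libraries of a line were separate cultures, so the p-values measure only the spread between these libraries, which may be technical.

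ATF4 is the effector of the integrated stress response. Kinases that sense misfolded protein, amino acid shortage, viral RNA or heme deficiency phosphorylate the initiation factor eIF2, which lowers protein synthesis in general while the Atf4 mRNA is translated more, and ATF4 then raises genes for amino acid uptake and synthesis and for tRNA charging. The unfolded protein response joins that branch, through the kinase PERK, to IRE1, which splices the Xbp1 mRNA, and to ATF6, which is cut loose from the membrane. The latter branches raise the chaperones and disposal proteins of the endoplasmic reticulum (ER). Much of this control acts on translation, splicing and cleavage, which counts of mRNA per gene do not measure.

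The libraries held between 15495260 and 17294525 estimated counts, and levels are given as CPM, the count scaled to 1 common library size after normalization. The lowest count of any of the 48 genes in a library was 26, and for 38 of them the estimate was a whole number in every library. For Cebpb, Phgdh, Psph, Slc7a11, Eif2ak3, Hsp90b1 and Manf it was whole in no library, so these genes can share reads with similar sequences and their values are less certain. The carcinoma markers Krt8, Krt18, Epcam, Cdh1 and Cldn7 summed to 1541 to 1703 CPM in P and to 2314 to 2402 CPM in AxR, although Cldn7 alone was lower in AxR. Of the 6 leukocyte markers, Tyrobp and Fcer1g were at 0 in every library and the sum was 6.14 to 8.09 CPM in P and 16.3 to 17 CPM in AxR, nearly all of it from Cd68 and Cd14. The fibroblast, endothelial and lung epithelial markers summed to at most 1.02 CPM in any library, with Lum, Kdr and Scgb1a1 at 0.

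Between the lines the 48 genes did not move as 1 program. In AxR, 20 of them rose, 12 fell and 16 did not pass the test, for which edgeR's quasi-likelihood p, adjusted over the whole table of tested genes, had to be under 0.05. The 66.7% that passed stand beside a background of 63.5% of all genes tested, of which 32.8% were higher and 30.8% lower. Libraries of the lines did not overlap for 32 of the 48 genes (66.7%), against 68.3% of all genes, and with 3 libraries against 3 an exact permutation test of a single gene cannot go below p = 0.1. Most changes were small. The median log2 fold change was 0.03, against 0.01 for all genes, and the median of its absolute value was 0.30, against 0.35. A change of at least 0.5 on the log2 scale, the size from which each gene is described in full below, was reached by 9 of the genes that rose and 2 that fell, together 22.9% of the 48 against 32.7% of all genes. A change of at least 1 was reached by 1 gene in each direction, Ddit3 and Vldlr, while 12.7% of all genes did so.

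The level of the Atf4 mRNA did not differ beyond the spread of its libraries, while genes known as its targets went both ways. Ddit3 and Sesn2 rose, whereas Vldlr and Asns, described below, fell. Atf4 was at 498, 526 and 516 CPM in P and at 472, 493 and 502 CPM in AxR. Its libraries overlapped, and its log2 fold change of -0.07 ± 0.046 (SE) did not pass the test (adjusted p = 0.196). Ddit3, which encodes CHOP, a transcription factor tied to cell death in prolonged ER stress, was at 68.4, 76.9 and 68.9 CPM in P and at 127, 143 and 160 CPM in AxR. Every AxR library lay above every P library, and Ddit3 was 2-fold higher (log2 fold change 1.00 ± 0.079, adjusted p = 1.49e-07). Ddit3 lies at chr10:127290774-127296288 (GRCm38, plus strand), and its 3′ end overlaps that of the tRNA synthetase gene Mars on the minus strand. The libraries kept strand, but whether the counting used it is not given in the sources used here. Sesn2, a stress-induced inhibitor of mTORC1 signaling (chr4:132492032-132510501), was at 35.7, 31.4 and 32.7 CPM in P and at 55.2, 68.5 and 61.4 CPM in AxR. Again the lines did not overlap, with a log2 fold change of 0.89 ± 0.081 (adjusted p = 2e-07).

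Vldlr fell furthest of the 48 genes. It encodes the very low density lipoprotein receptor, which is known to be induced through PERK and ATF4 under ER stress, and lies at chr19:27216484-27254231. Vldlr was at 22.3, 20.2 and 22.2 CPM in P and at 1.65, 2.17 and 1.54 CPM in AxR. The AxR libraries were thus well above the 0.1707 to 0.1956 CPM that 3 counts make in a library, and Vldlr was 12.1-fold lower in AxR (log2 fold change -3.59 ± 0.134, adjusted p = 9.69e-12). Its direction was the opposite of that of Ddit3 and Sesn2.

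The other stress factors and signaling genes changed less. Atf5, a factor related to ATF4, rose by 0.23 on the log2 scale, and Chac1, which breaks down glutathione, rose by 0.39. Trib3, a pseudokinase that restrains ATF4 and CHOP, was at 393, 410 and 372 CPM in P and at 261, 322 and 362 CPM in AxR. AxR replicate 3 nearly reached the P range, and Trib3 passed the test narrowly (log2 fold change -0.32 ± 0.112, adjusted p = 0.0408). That call was lost without P replicate 1 (adjusted p = 0.114), without P replicate 2 (0.186) or without AxR replicate 2 (0.0886). Atf3, a repressor induced in many stresses, had the widest spread of the 48 genes, with 101, 113 and 104 CPM in P and 76.1, 102 and 142 CPM in AxR. The AxR libraries lay below, within and above the P range, and the log2 fold change was 0.01 ± 0.254. Cebpb, Nupr1 and Ppp1r15a, the last of which encodes the GADD34 subunit that returns eIF2 to its active state, had log2 fold changes of -0.11, -0.10 and -0.18 and did not pass. All of these passed as lower once AxR replicate 3 was left out (adjusted p = 0.0402, 0.0358 and 0.00057).

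**Figure D1:**
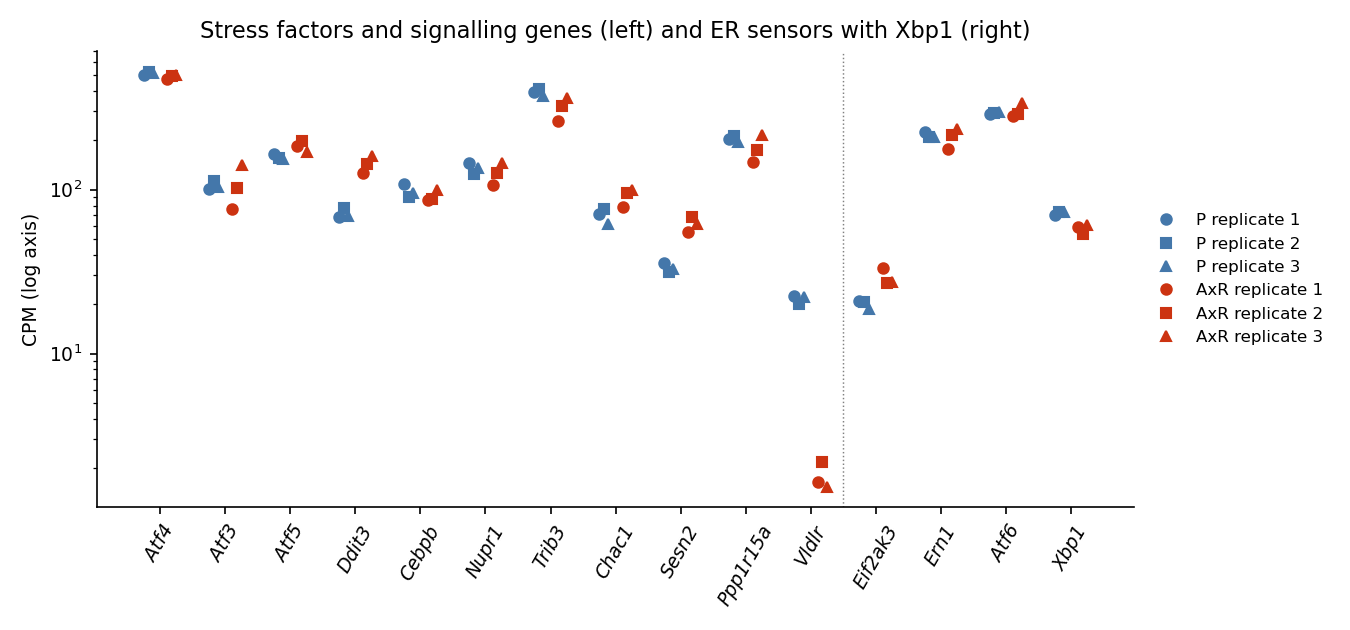
Normalized level (CPM, log axis) of the 11 stress factors and signaling genes, left of the dotted line, and of the 3 ER sensors with Xbp1, right of it, in each of the 3 P (blue) and 3 AxR (red) libraries. Ddit3, Sesn2 and Eif2ak3 lay higher in every AxR library and Vldlr and Xbp1 lower, while Atf4, Ern1 and Atf6 overlapped.

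Of the ER sensors, PERK's gene was the one that rose. Eif2ak3, which encodes PERK (chr6:70844515-70905245), was at 20.9, 20.7 and 18.6 CPM in P and at 33.1, 26.8 and 27.2 CPM in AxR. Its lines did not overlap and its log2 fold change was 0.53 ± 0.091 (adjusted p = 0.00011). Ern1, which encodes IRE1, and Atf6 had log2 fold changes of -0.03 and 0.04, with overlapping libraries (adjusted p = 0.796 and 0.551). Xbp1, the substrate of IRE1 and a factor for chaperone genes (chr11:5520659-5525893), was at 70, 72.8 and 72.6 CPM in P and at 59, 53.5 and 60.8 CPM in AxR. The lines did not overlap, AxR being lower, with a log2 fold change of -0.31 ± 0.060 (adjusted p = 0.000322). The count sums the spliced and unspliced Xbp1 mRNA.

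The amino acid and tRNA synthetase arm consists of 9 genes of amino acid and one-carbon synthesis, 6 transporters and 6 cytosolic tRNA synthetases. Of these 21 genes, 11 rose, 5 fell and 5 did not pass the test, beside the 32.8% higher and 30.8% lower of all genes tested. The median log2 fold change was 0.19 and the range -0.35 to 0.91. ATF4 acts on many of these genes through a composite element that it binds with C/EBP proteins, spelled here TGATGNAA. The letters were looked for on both strands of the RefSeq promoter windows (GRCm38.p6), which run from 250 bases before to 50 bases after a start site, and 41 of the 48 genes have such a window. The element was present in 13 of the 41 (31.7%) and in 7 of the 17 genes of the amino acid and tRNA synthetase arm that have a window (41.2%), counting any window of a gene, against 4.51% of all 27025 genes with a window. The elements shown are examples and not all of the matches, chosen upstream of the start site for genes of the arm that rose, fell or did not pass. Capitals mark the element, and each sequence reads 5′ to 3′ on the strand of its gene.
Slc7a11, chr3:50443641-50443691, minus strand: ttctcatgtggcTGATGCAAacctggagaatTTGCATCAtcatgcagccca
Gars, chr6:55037959-55037990, plus strand: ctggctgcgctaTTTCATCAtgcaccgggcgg
Asns, chr6:7693214-7693243, minus strand: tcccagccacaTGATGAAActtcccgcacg
Pycr1, chr11:120643832-120643863, minus strand: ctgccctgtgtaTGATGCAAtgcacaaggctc

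Slc7a11 holds the letters 1 time on each strand, starting 66 and 47 bases before its start site, and rose. Gars also rose, Asns fell, and Pycr1 did not pass. Of the 7 genes of the arm with the element, 3 rose and 2 fell. Among the 10 without it, 5 rose and 3 fell. The median log2 fold changes of these groups were 0.14 and 0.12, so the letters did not separate genes that rose from genes that fell. They are a description of the windows and were not tested as binding sites. The genes were listed as ATF4 targets and stress response genes, so a share above that of all genes is not separate from that choice.

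Within amino acid synthesis the steps went different ways. Asns, asparagine synthetase and the textbook ATF4 target (chr6:7675169-7693254), was at 449, 485 and 442 CPM in P and at 342, 358 and 388 CPM in AxR. It was lower in every AxR library, with a log2 fold change of -0.34 ± 0.055 (adjusted p = 6.83e-05). The enzymes of the serine pathway rose, with log2 fold changes of 0.30 for Phgdh, 0.19 for Psat1 and 0.26 for Psph, the last being 1.2-fold higher. Cth, which makes cysteine from cystathionine, rose by 0.35. The mitochondrial folate enzyme Mthfd2 fell by 0.22 and Aldh18a1, the first enzyme of proline synthesis from glutamate, fell by 0.17, while Shmt2 and Pycr1, which act beside them, each had a log2 fold change of 0.05 and did not pass. The call of Aldh18a1 was lost without P replicate 2 (adjusted p = 0.0596) or AxR replicate 1 (0.0606).

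Of the 6 transporters 3 rose and 1 fell, beside 32.8% higher and 30.8% lower of all genes tested. Slc7a11, the light chain of the cystine and glutamate exchanger (chr3:49892526-50443614), was at 110, 112 and 121 CPM in P and at 150, 161 and 182 CPM in AxR. The lines did not overlap and the log2 fold change was 0.52 ± 0.068 (adjusted p = 9.42e-06). Slc3a2, the heavy chain that Slc7a11 shares with the leucine carrier Slc7a5, did not pass the test. It was at 362, 396 and 361 CPM in P and at 310, 335 and 371 CPM in AxR, with overlapping libraries (log2 fold change -0.14, adjusted p = 0.0683). Slc3a2 passed as lower with DESeq2 (0.0483), with no filter on low counts (0.0243) and without AxR replicate 3 (0.00317). Slc7a5 also overlapped (log2 fold change -0.05). The neutral amino acid carriers Slc1a4 and Slc1a5 rose by 0.31 and 0.26, and the cationic amino acid carrier Slc7a1 fell by 0.35 on the log2 scale.

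The tRNA synthetases, which load amino acids onto tRNAs, held the largest changes of the arm. Of the 6 genes, 4 rose and 1 fell, beside 32.8% higher and 30.8% lower of all genes tested. The median log2 fold change of the 6 was 0.39, against 0.05 for the 14 other cytosolic tRNA synthetases described below. Sars, for serine (chr3:108424865-108445209), was at 491, 507 and 487 CPM in P and at 883, 911 and 996 CPM in AxR. The lowest AxR library was far above the highest P library, a 1.88-fold difference (log2 fold change 0.91 ± 0.052, adjusted p = 9.33e-10). Gars, for glycine (chr6:55038007-55079500), was at 276, 298 and 287 CPM in P and at 441, 430 and 475 CPM in AxR. Its lines were also apart, with a log2 fold change of 0.65 ± 0.052 (adjusted p = 4.25e-08). Mars and Wars, for methionine and tryptophan, rose by 0.42 and 0.36. Yars, for tyrosine, had a log2 fold change of 0.14 (adjusted p = 0.0813), and passed as higher without AxR replicate 1 or 2. Aars, for alanine, fell. It was at 882, 952 and 866 CPM in P and at 707, 694 and 804 CPM in AxR (log2 fold change -0.29, adjusted p = 0.000537).

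The 12 genes of the ER chaperone arm split evenly. In AxR 4 rose, 4 fell and 4 did not pass, shares close to the 32.8% higher and 30.8% lower of all genes tested. The median log2 fold change was -0.07 and the range -0.55 to 0.69. Hspa5, which encodes BiP, the main ER chaperone and a common readout of the unfolded protein response, was at 2693, 2777 and 2723 CPM in P and at 2696, 2602 and 2952 CPM in AxR. The AxR libraries lay on both sides of the P range, and the log2 fold change was 0.01 ± 0.051 (adjusted p = 0.874). It took a sign of either kind with the scaling, at -0.01 by library size alone.

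The genes of the arm that rose were a chaperone, an isomerase, a co-chaperone and a disposal factor. Hsp90b1, the ER form of HSP90 known as GRP94 (chr10:86690209-86705509), was at 794, 787 and 790 CPM in P and at 1377, 1272 and 1171 CPM in AxR. The lines did not overlap and the log2 fold change was 0.69 ± 0.055 (adjusted p = 4.42e-08). Pdia6, a disulfide isomerase of the ER (chr12:17266545-17284770), was at 162, 154 and 161 CPM in P and at 264, 260 and 235 CPM in AxR. The libraries did not overlap, and Pdia6 was 1.59-fold higher in AxR (log2 fold change 0.67 ± 0.054, adjusted p = 4.43e-08). Dnajc3, a co-chaperone of BiP also called P58IPK (chr14:118937976-118981697), was at 68.1, 61.7 and 65.3 CPM in P and at 97.9, 88.2 and 90.1 CPM in AxR. It was higher in every AxR library (log2 fold change 0.50 ± 0.060, adjusted p = 3.21e-06). Herpud1, which serves the disposal of ER proteins, rose by 0.37.

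Among the genes that fell was Hyou1, which encodes an HSP110-like partner of BiP (chr9:44379490-44392369). Its level was 244, 242 and 244 CPM in P and 166, 167 and 166 CPM in AxR. The libraries of a line were nearly equal, and the log2 fold change was -0.55 ± 0.045 (adjusted p = 5.45e-08). Dnajb9, a BiP co-chaperone, and Manf, a secreted ER stress protein, each had a log2 fold change of -0.46, and Edem1, a disposal factor for glycoproteins, one of -0.31. Pdia4, Sdf2l1 and Creld2 did not pass, with log2 fold changes of -0.08, -0.19 and -0.06. Creld2 and Sdf2l1 are among the lowest of the arm, with at most 15.9 and 9.41 CPM in any library.

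**Figure D2:**
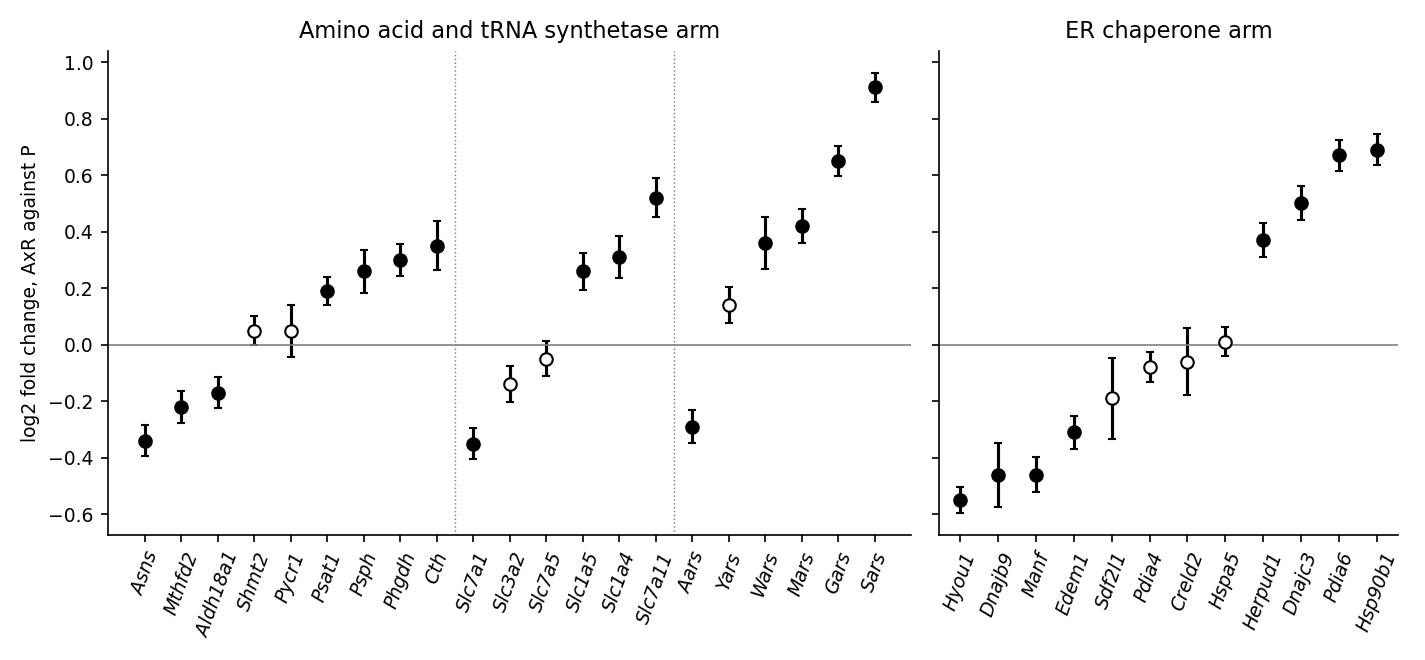
Log2 fold change of AxR against P (vertical axis) with its standard error for the 21 genes of the amino acid and tRNA synthetase arm (synthesis, transporters and tRNA synthetases from left to right, parted by dotted lines) and the 12 genes of the ER chaperone arm. Filled points passed an adjusted p under 0.05. The tRNA synthetases lay mostly above 0 up to 0.91, and the chaperones ran from -0.55 to 0.69 around BiP (Hspa5) at 0.01.

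The chaperone genes that rose share letters in their promoters. Such genes are known to be raised through the ER stress element, searched on both strands as CCAAT, 9 bases of any kind and CCACG, and through its variant ER stress element II, searched as ATTGG, 1 base of any kind and CCACG, which ATF6 uses together with the factor NF-Y. The first was present in the windows of 5 of the 10 chaperone genes that have one (50%), against 0.137% of all genes with a window, and the second in that of Herpud1, against 0.0444% of all genes with a window. The chaperone genes were listed as genes of the unfolded protein response, so these shares are not separate from the choice of genes. The elements are shown because they stand before each of the 4 chaperone genes that rose, and before Hspa5 and Creld2. Capitals mark the element.
Hspa5, chr2:34772020-34772048, plus strand: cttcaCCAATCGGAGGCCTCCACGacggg
Hsp90b1, chr10:86705626-86705668, minus strand: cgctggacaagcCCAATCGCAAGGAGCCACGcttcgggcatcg
Hsp90b1, chr10:86705521-86705563, minus strand: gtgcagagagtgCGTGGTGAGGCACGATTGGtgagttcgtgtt
Pdia6, chr12:17266479-17266521, plus strand: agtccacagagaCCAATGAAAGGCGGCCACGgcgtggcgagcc
Dnajc3, chr14:118937815-118937857, plus strand: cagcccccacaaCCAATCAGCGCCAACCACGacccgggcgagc
Creld2, chr15:88819508-88819550, plus strand: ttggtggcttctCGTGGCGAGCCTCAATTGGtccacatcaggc
Herpud1, chr8:94386365-94386399, plus strand: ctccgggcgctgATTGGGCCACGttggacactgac

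Of the 6 chaperone genes with either element, 4 rose and 0 fell, with a median log2 fold change of 0.43. Of the 4 without, Dnajb9 and Edem1 fell and Pdia4 and Sdf2l1 did not pass, with a median of -0.25. Hyou1 and Manf, which also fell, have no window and are in neither group. Over all 9567 tested genes with a window, 25 held either element, the 6 chaperone genes included. Of these, 12 rose and 7 fell (median 0.14). Of the 9542 without, 3183 rose and 3202 fell (median -0.01). The 12 that rose with an element include the 4 chaperone genes, and the 7 that fell include 0 of them. That count is therefore not separate from the division among the chaperones. The element did not go with a rise in every gene, since Hspa5 and Creld2 hold it and did not pass the test. The division was not seen among 25 other ER genes with a window. There, Derl3 is among the 6 with either element and was not tested, and of the others with it 2 rose and 1 fell (median 0.14), while 11 of the 19 without rose and 4 fell (median 0.20). A further element bound by XBP1 and ATF6, spelled TGACGTGG, was in a window of 0 of the 41 genes and of 0.714% of all genes that have one. Herpud1 also holds the ATF4 composite element. The division of the chaperones was noticed after their values were seen and was not tested.

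**Figure D3:**
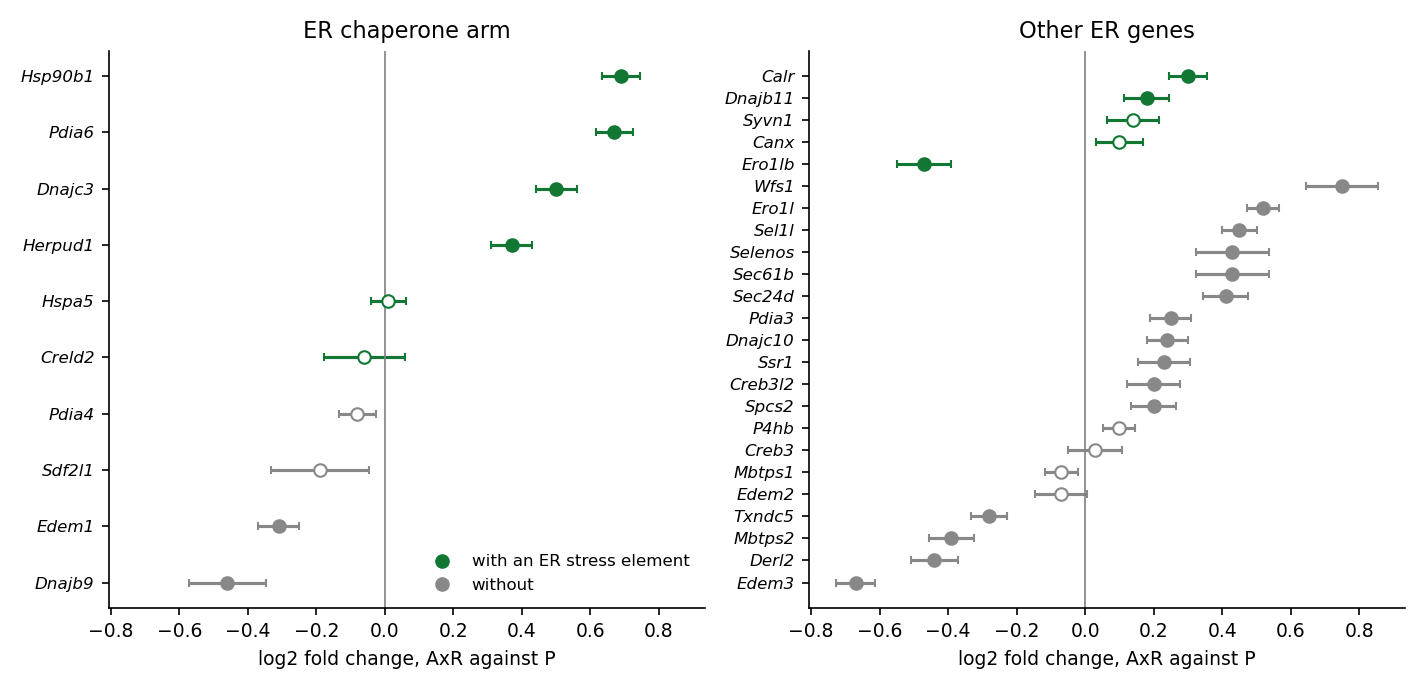
Log2 fold change of AxR against P (horizontal axis) with its standard error for genes whose promoter window holds ER stress element or element II letters (green) or does not (grey), filled where the adjusted p was under 0.05. Among the chaperones (left) all genes that rose are green, while among the other ER genes (right) genes without the letters, such as Wfs1 at 0.75, also rose.

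Set side by side, both arms held genes that rose and genes that fell. In the amino acid and tRNA synthetase arm 76.2% of the genes passed the test and in the ER chaperone arm 66.7%, beside 63.5% of all genes tested. More genes rose than fell in the former, 11 against 5, and the numbers were equal in the latter, 4 and 4. Their median log2 fold changes were 0.19 and -0.07. The median absolute log2 fold change was 0.29 in the former and 0.42 in the latter. When the mean over the genes of an arm was taken in each AxR library, relative to the mean of P, it was 0.08, 0.10 and 0.27 on the log2 scale in the amino acid and tRNA synthetase arm and 0.06, 0.00 and -0.02 in the ER chaperone arm. In the P libraries it was -0.04, 0.07 and -0.03 in the former arm and -0.01, 0.01 and 0.00 in the latter. In the former arm AxR replicates 1 and 2 thus lay only slightly above P replicate 2. Only AxR replicate 3 was clearly higher than all P libraries. No test of the difference between the arms was made.

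The arms also differed in how their genes varied among libraries of the same line. AxR replicate 3 was the highest AxR library for 20 of the 21 genes of the amino acid and tRNA synthetase arm (95.2%), including all 6 transporters and all 6 tRNA synthetases. Over all genes tested it was the highest in 34.3%. It was the highest for only 3 of the 12 chaperones (25%). P replicate 2 was the highest P library for 18 of the 21 genes (85.7%), against 40.2% of all genes and 4 of the 12 chaperones. Part of this was also seen in related lists described below. For the 14 other cytosolic tRNA synthetases, P replicate 2 was the highest P library in 78.6% and AxR replicate 3 the highest AxR library in 50%. For 10 other amino acid and one-carbon genes both shares were 70%. Among stress factors and signaling genes, AxR replicate 1 was the lowest AxR library for 9 of 11 genes, among them Trib3 with 261 CPM and Atf3 with 76.1 CPM, and replicate 3 the highest for 8. Without AxR replicate 3 the arm still had a positive median, the range over all libraries left out in turn being 0.15 to 0.24. The pattern was chosen after the values were seen, and what set these libraries apart was not tested.

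**Figure D4:**
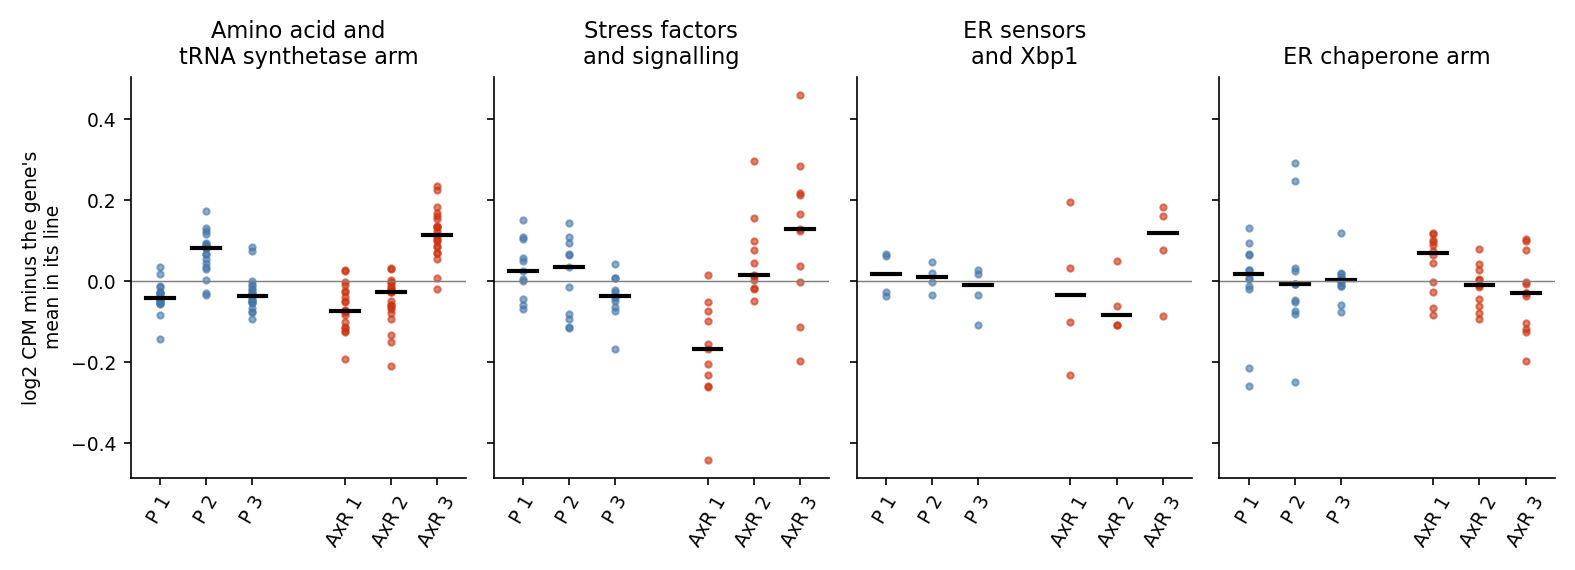
Level of each gene in each library on the log2 scale minus its mean in the same line (vertical axis), for the 21, 11, 4 and 12 genes of the groups named above the panels. Points are genes and bars are medians. In the amino acid and tRNA synthetase arm nearly all genes lay above 0 in P replicate 2 and AxR replicate 3, and the chaperones did not.

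Levels per length show how these changes reordered the genes. Per kilobase of exon, Hspa5 stood first of the 48 in both lines, with 646 CPM per kb in P and 650 in AxR. Hsp90b1 rose from 196 to 316 CPM per kb and passed Atf4, which was at 218 and 207. Sars moved from rank 11 to rank 4, with 96.2 and 181 CPM per kb, and Ddit3 from rank 27 to rank 14, with 41.7 and 83.5. Vldlr was the lowest in both lines, with 2.14 CPM per kb in P and 0.177 in AxR. Exon lengths were those of the union of annotated exons, so genes with long alternative exons are set too low.

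The 48 genes lie on 16 chromosomes, and the median change between the lines differed from chromosome to chromosome. It was 0.01 on the log2 scale on chromosomes 6 and 11 and 0.00 on chromosomes 12 and 19. The median log2 fold change of the tested genes was 0.32 on chromosome 3, which holds Phgdh, Cth, Slc7a11 and Sars, and 0.25 on chromosome 10, which holds Ddit3, Shmt2, Mars and Hsp90b1. It was -0.23 on chromosome 9, which holds Hyou1 and Manf. Relative to the median of the own chromosome, the log2 fold change was 0.59 for Sars, 0.75 for Ddit3, 0.44 for Hsp90b1 and -0.32 for Hyou1. It was 0.20 for Slc7a11, 0.03 for Cth and -0.03 for Phgdh. Among genes that passed, the value shrank from 0.23 to 0.05 for Atf5, from 0.26 to 0.08 for Slc1a5 and from 0.42 to 0.17 for Mars. It shrank likewise from -0.29 to -0.11 for Aars, from -0.35 to -0.18 for Slc7a1 and from -0.46 to -0.23 for Manf. Slc7a11 thereby came to lie below Slc1a4, at 0.31, and Hyou1 changed less than Dnajb9, at -0.46. Of the 32 genes that passed, 31 kept their sign, the exception being Phgdh. The median of the amino acid and tRNA synthetase arm became 0.05 and that of the ER chaperone arm 0.01. For the 6 tRNA synthetases of the former arm it became 0.27. The part of chromosome-wide shifts in the results was not tested.

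Other genes of these pathways, from lists drawn up alongside the 48, also moved both ways, and their counts stand beside the same 32.8% higher and 30.8% lower of all genes tested. Of 14 other cytosolic tRNA synthetases 7 rose and 3 fell (median log2 fold change 0.05). Nars, for asparagine, rose by 0.70 and Cars, for cysteine, by 0.59, while Iars, for isoleucine, fell by 0.52 and Eprs, for glutamate and proline, by 0.44. Among 17 mitochondrial synthetases 7 rose and 5 fell, from 0.62 for Vars2 and 0.61 for Aars2 to -0.70 for Mars2 and -0.53 for Yars2. Of 18 tested genes of eIF2 signaling and other stress targets 7 rose and 6 fell. Ddit4, which encodes the mTORC1 inhibitor REDD1, was at 116, 101 and 95.7 CPM in P and at 252, 300 and 234 CPM in AxR, and thus rose like Sesn2 (log2 fold change 1.33, adjusted p = 2.61e-06). Fgf21, a hormone induced by ATF4, rose by 1.32 from a mean of 1.48 CPM. Stc2 and Eif2s2 each had a log2 fold change of -0.38.

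The largest change in these lists lay beside the folate enzymes of the amino acid arm. Aldh1l2, a mitochondrial enzyme that oxidizes formyl-tetrahydrofolate, was at 2.74, 3.23 and 2.8 CPM in P and at 50.2, 49.4 and 60.8 CPM in AxR. The lines were far apart (log2 fold change 4.19 ± 0.118, adjusted p = 5.23e-13), whereas Mthfd2, which works on the same folate pool, fell. Slc7a3, a second cationic amino acid carrier, was at or under 3 counts in each P library and at 1.21, 1.21 and 0.967 CPM in AxR, so no fold is given. Mthfd2l, a mitochondrial folate enzyme, fell by 0.28, and Got1, the cytosolic aspartate aminotransferase, by 0.23. Over the 10 tested genes of this list 5 rose and 2 fell.

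Of 27 other tested genes of ER folding and disposal 15 rose and 6 fell, with a median log2 fold change of 0.20, beside 32.8% and 30.8% of all genes tested. Wfs1, an ER membrane protein, rose by 0.75 and Sil1, the nucleotide exchange factor of BiP, by 0.62. Hspa13 and the disposal factor Edem3 fell, by 0.85 and 0.67. Relative to its chromosome's median of 0.50, the log2 fold change of Sil1 was 0.12 and that of Nars 0.20. Of 10 tested cytosolic heat shock genes 4 rose and 4 fell. Hspa8, the constitutive HSP70, was at 767, 742 and 818 CPM in P and at 1743, 1636 and 1554 CPM in AxR (log2 fold change 1.08, adjusted p = 2.2e-10), while its ER relative Hspa5 had a log2 fold change of 0.01. Hspa1b rose by 1.44, but it has a near-identical copy, Hspa1a, with which it can share reads. Hspe1 and Dnajb1 fell by 0.34 and 0.27. Relative to the medians of their chromosomes, the falls named from these lists were -0.25 for Iars, -0.15 for Eprs, -0.41 for Mars2 and -0.21 for Yars2. They were -0.39 for Stc2, -0.28 for Eif2s2, -0.12 for Mthfd2l and -0.23 for Got1. For Hspa13, Edem3, Hspe1 and Dnajb1 they were -0.53, -0.38, -0.05 and -0.09. Among the genes named from these further lists, the estimates of Iars, Eif2s2, Aldh1l2, Hspa8 and Hspa1b were whole in no library.

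**Figure D5:**
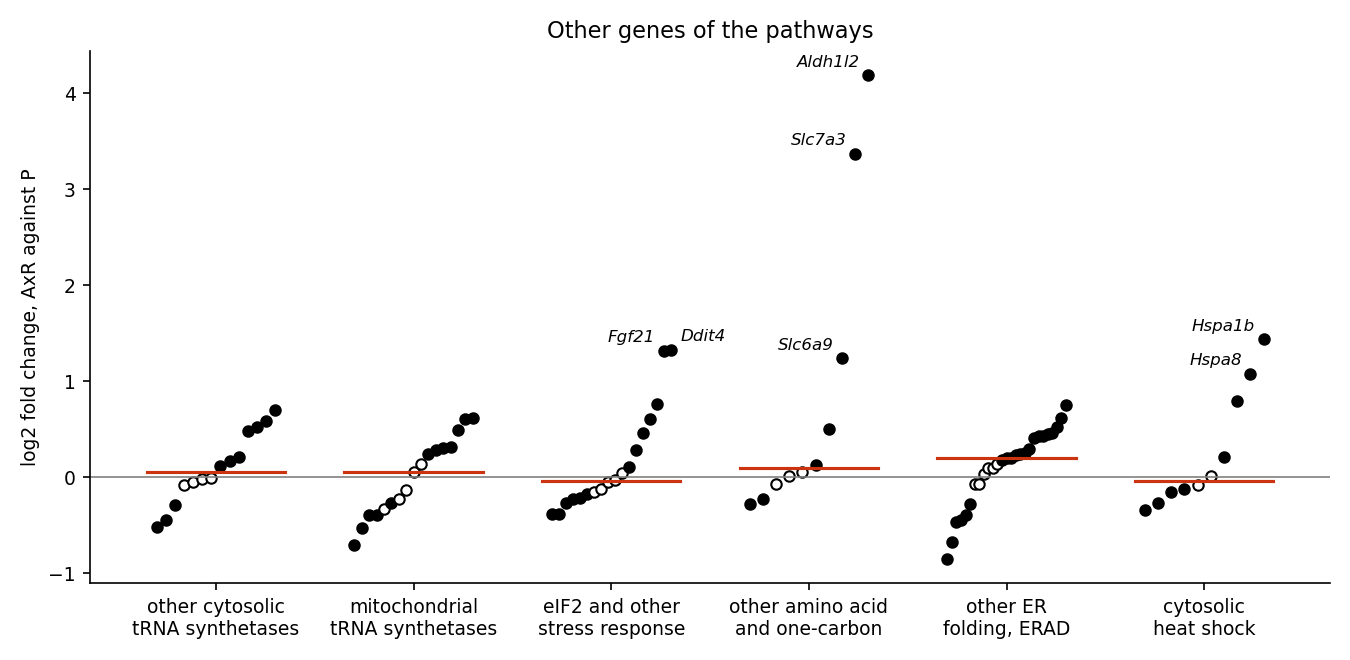
Log2 fold change of AxR against P (vertical axis) for tested genes of 6 further lists, ordered within each list, filled where the adjusted p was under 0.05, with list medians as red bars. Most points lay within 1 of 0 and on both sides of it. Aldh1l2 stood highest at 4.19, and the value of Slc7a3 depends on the fit's prior count because P was at or under 3 counts.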

How the data were processed

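The authors sequenced stranded, poly(A)-selected libraries, checked reads with FastQC 0.11.5, aligned them to GRCm38 (GENCODE M16) with STAR 2.6.0a, and deposited RSEM 1.3.1 estimated counts per gene. RSEM divides reads that match several genes, which left 10.3% to 10.7% of a library's values with a decimal part. The labels give no batch.

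Estimated counts were rounded, filtered with filterByExpr, normalized by upper quartile (factors 0.9662 to 1.017) and fitted in edgeR 4.0.16 (R 4.3.3) by glmQLFit with robust dispersions and line as the only term. P-values came from glmQLFTest, with Benjamini-Hochberg adjustment over the 13550 genes tested. Symbols, positions and exon lengths came from GENCODE M21, where 53360 identifiers were found. Exact two-sided permutation tests used log2(CPM + 0.5). Chromosome medians were taken over the tested genes. Library by library means of the arms used log2 CPM without the added 0.5. Floors of 3 counts cover counting error only. Promoter windows came from RefSeq, GRCm38.p6. Cth, Slc7a5, Slc1a5, Wars, Atf6, Hyou1 and Manf had none, and those overlapping an annotated exon are printed with shorter flanks.

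Alternatives were TMM, library size alone, DESeq2 1.42.0, limma-voom (limma 3.58.1), no filter, at least 10 counts in every library, the replicate number as a block, each library left out, subtraction of the chromosome's median, and a size threshold of 1 on the log2 scale. All 48 genes are named, in full from an absolute log2 fold change of 0.5 and always for Atf4, Ddit3, Xbp1, Hspa5 and Asns. From each further list the 2 highest and 2 lowest log2 fold changes that passed are named. The full values of Trib3, Atf3, Aars, Slc3a2 and Hspa8 were added after their values were seen. An item of 1 further list and 1 promoter sequence are not reported here. The 48 genes and all lists were chosen with earlier results of these data known.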

Additional observations from a re-analysis of the deposited data

How the results depend on the processing

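The counts of genes that rose and fell were within 1.5 times of those reported under every alternative that gives counts except the added requirement of a change of at least 1 on the log2 scale, which left 1 higher and 1 lower of all 48 genes, 0 and 0 of the amino acid and tRNA synthetase arm, and 0 and 0 of the ER chaperone arm. The median of the chaperone arm, -0.07, was -0.09 by library size alone, 0.01 relative to the chromosomes' medians, and between -0.11 and -0.00 with single libraries left out, so its sign carries no weight. That of the amino acid and tRNA synthetase arm became 0.05 relative to the chromosomes' medians. Over libraries left out in turn, 20 to 21 of the 48 genes rose and 10 to 16 fell, the most without AxR replicate 3. The replicate numbers did not pair libraries, with correlations of deviations from the line means between -0.0217 and -0.0061 for same-numbered libraries, and with the replicate block 20 genes rose and 12 fell and 8327 of all genes passed.

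Genes whose direction turned had not passed the test, apart from Phgdh, at -0.03 relative to its chromosome. Hspa5 was at -0.00 with TMM and DESeq2, -0.01 by library size and -0.04 without AxR replicate 3. Atf3 was at -0.00 by library size and DESeq2, -0.03 with limma-voom and with the replicate block, and with single libraries left out between -0.25 (without AxR replicate 3) and 0.21 (without AxR replicate 1). Over libraries left out, Nupr1 ranged from -0.21 to 0.01, Pycr1 from -0.04 to 0.15, Slc7a5 from -0.12 to 0.01, Ern1 from -0.12 to 0.08, Atf6 from -0.04 to 0.10 and Creld2 from -0.17 to 0.08. Trib3 also lost its call by library size (adjusted p = 0.102), and Ppp1r15a passed with no filter (adjusted p = 0.0215). The causes were not tested. The median of all genes lay between -0.02 and 0.02 under all alternatives fitted.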
